A study of Rattus norvegicus with 18 samples.

Results

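The genes described here encode collagens, other proteins of the extracellular matrix, the enzymes and inhibitors that process it, and surface markers of fibroblasts. They are 40 genes listed by symbol, and every probe annotated to one of those symbols was taken on both array designs of the study. On the larger design 35 of the 40 had a probe, and 31 of these were bright enough to be tested among 9953 genes. On the smaller design 26 had a probe, of which 21 passed the same limit on brightness. No probe was annotated to Col3a1, Col6a3, Col4a2, Thbs1 or Lamb1 on either design, so these 5 members have no value.

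Cardiomyocytes, the contractile cells of heart muscle, were prepared from ventricles of day 1 rats (24 ventricles) on Percoll density gradients, plated at 250000 cells per 100 mm square dish and kept for 24 h in cardiac medium. At that point, called time zero, 6 dishes were extracted, and the labels record no treatment for them. Another 12 dishes were diluted to 50% with human embryonic stem cell (hESC) medium, either unconditioned or conditioned by stem cells, with fetal bovine serum (FBS) at 5% and horse serum (HS) at 10% in both. From each medium 3 dishes were extracted after 24 h and 3 after 48 h. All groups therefore share the same type of purified primary cell and the first 24 h in culture. No group stayed in undiluted cardiac medium after time zero. Time in culture, the added hESC medium and any change of serum from the cardiac medium cannot be told apart in the comparisons with time zero. No label tells separate cell preparations apart. The p-values therefore reflect no more than the spread between arrays, and that spread may be technical. Only the comparison of both media addresses the question in the title of the series, which concerns factors secreted by stem cells.

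The extracellular matrix of the heart is a mesh of fibrillar collagens, mainly types I and III, tied to muscle cells by basement membranes of collagen IV, laminin and nidogen and by adhesive glycoproteins such as fibronectin. Cardiac fibroblasts make most of the fibrillar collagen, and muscle, endothelial and mural cells add basement membrane. Matricellular proteins such as periostin and osteopontin appear in growing or injured tissue, and metalloproteinases, their inhibitors and lysyl oxidases remodel and crosslink the fibres. Fibroblasts commonly persist in neonatal cardiomyocyte cultures, which is why the members include their markers.

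RNA was labelled with biotin and hybridised to 1-colour CodeLink arrays, with 4 time zero arrays (replicates 3 to 6) and 2 of each other group (replicates 2 and 3) on the larger design. These replicate numbers are not in the labels; they follow the order in which samples are listed and serve only as names. The smaller design carried 2 time zero arrays and 1 of each other group. It was used to set changes side by side, and otherwise entered only alternative fits. Intensities below were scaled so that each array had the same median, 96.8 on the larger design, and have no unit. Levels are compared only within a probe. Changes are log2 differences ± SE after the median change of all probes was subtracted, and adjusted p-values are Benjamini-Hochberg values of limma over 23694 probes, with 0.05 as the threshold for a call. The call tests the change before that subtraction, and the subtracted median was 0.18 for 24 h and 0.08 for 48 h against time zero and 0.09 between the media over both times. Replicates 4 and 5 of time zero, and replicate 2 of unconditioned medium at 48 h, stood apart, with upper quartiles of intensity 22.4 to 25.7 times their lower quartiles, against 38.7 to 47.8 times on the other 9 arrays. On those 3 arrays the tested members also lay low within their groups, with a median log2 level against the time zero mean of -0.50, -0.17 and 0.44, against 0.21 to 1.16 on the other 9 arrays. All genes shifted with them, with medians of -0.43, -0.23 and -0.20 against 0.17 to 0.34.

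The label of fibroblast markers held only in part. Decorin (Dcn) and lumican (Lum), small proteoglycans that bind collagen fibrils, the platelet-derived growth factor receptor Pdgfra and the basement membrane linker Nid1 were too dim to be tested, and lay at the lower limit of intensity, 4.84, on 4, 7, 8 and 5 of 12 arrays respectively. Dcn read at most 51.6 and Pdgfra at most 23.4 on any array. On the smaller design, where the lower limit was 14.4, Dcn, Lum and Nid1 did not exceed it on any of 6 arrays, and Pdgfra had no probe. The transcription factor Tcf21 and the protease Fap, fibroblast markers outside the 40 genes, were below the limit on brightness too. Measurable fibroblast markers were the type I collagen chains Col1a1 and Col1a2, Thy1, Ddr2 and Postn, so 5 of the 10 fibroblast markers with a probe were tested. All 16 cardiomyocyte markers with a probe were tested, with a summed intensity of 209553 to 418449 over the 12 arrays. A gene from these dishes can read lower because fewer cells of a type were present or because each held less of its RNA, which bulk arrays cannot tell apart.

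Of the 14 members called against time zero, 8 had a promoter in the RefSeq table for the GRCr8 build, and the windows of 4 of these, among the members that rose together, are shown from 250 bases before to 50 after the start. Capitals mark matches, on either strand, to TATAAA (the TATA box), to CCAAT (bound by NF-Y), to GGGCGG (the GC box bound by Sp factors), to TGANTCA (the AP-1 site) and to GGAATG (the TEAD site).
Vcan (chr2:22595906-22596205, minus strand): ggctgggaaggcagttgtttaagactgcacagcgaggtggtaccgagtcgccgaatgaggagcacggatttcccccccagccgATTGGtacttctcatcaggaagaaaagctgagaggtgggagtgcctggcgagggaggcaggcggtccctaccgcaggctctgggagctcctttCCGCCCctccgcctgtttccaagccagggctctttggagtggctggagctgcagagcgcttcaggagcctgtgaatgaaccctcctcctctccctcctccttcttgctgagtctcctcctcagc
Timp3 (chr7:19459509-19459808, minus strand): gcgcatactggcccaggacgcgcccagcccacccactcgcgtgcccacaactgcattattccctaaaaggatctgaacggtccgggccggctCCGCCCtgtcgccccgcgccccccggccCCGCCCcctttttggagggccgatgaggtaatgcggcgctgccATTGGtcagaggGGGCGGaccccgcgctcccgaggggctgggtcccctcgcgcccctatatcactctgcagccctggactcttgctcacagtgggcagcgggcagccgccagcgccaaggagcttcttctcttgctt
Col18a1 (chr20:11473395-11473694, plus strand): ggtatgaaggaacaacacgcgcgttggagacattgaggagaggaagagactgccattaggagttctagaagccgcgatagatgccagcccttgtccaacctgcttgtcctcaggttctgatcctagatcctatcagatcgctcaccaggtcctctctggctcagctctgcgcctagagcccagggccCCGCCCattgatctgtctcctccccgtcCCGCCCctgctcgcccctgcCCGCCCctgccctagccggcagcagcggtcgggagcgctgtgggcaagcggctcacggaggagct
Postn (chr2:140677811-140678110, plus strand): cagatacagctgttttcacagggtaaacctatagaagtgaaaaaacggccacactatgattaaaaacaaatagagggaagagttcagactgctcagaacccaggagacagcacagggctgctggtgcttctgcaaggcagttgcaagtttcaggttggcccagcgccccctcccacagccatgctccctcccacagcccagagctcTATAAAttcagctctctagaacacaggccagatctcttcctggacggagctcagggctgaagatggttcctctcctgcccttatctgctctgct

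Vcan, Timp3 and Col18a1 each hold at least 1 GC box, Vcan and Timp3 hold a CCAAT match, and Postn holds a TATA match 44 bases before its start. A GC box match was present in 6 of the 8 called members with a promoter and in 16 of all 26 members with one. It was present in 33.1% of the 33469 promoters of the same length. Those 6 windows held 61% to 72% G and C, against a median of 51.67% over all promoters. Col5a2 and Postn, without a match, held 47.67% and 52%. The part of base content in the GC box counts was not tested. CCAAT matches were present in 3 of the 8 called members, 12 of 26 members and 37.5% of promoters, and TATAAA in 1 of 8, 4 of 26 and 14.2%. Neither TGANTCA (7.33% of promoters) nor GGAATG (14.2%) occurred in the 8 windows of called members, and among all 26 members they were present in 2 and 4. Matches of different motifs overlapped once in the 26 windows. These letters describe the windows and do not show binding.

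Against time zero, 9 of the 31 tested members rose and none fell at 24 h, where 4.14% of all genes were called in either direction and 3.78% rose. At 48 h 14 of the 31 rose and none fell, where 8.33% of genes were called and 7.14% rose. The median change of the tested members was 0.44 at 24 h and 0.87 at 48 h, and that of all tested genes was 0.07 and 0.08. The versican, Timp3, Col18a1 and Loxl2 genes rose most at both times, and of the 6 fibrillar collagens tested 1 was called at 24 h and 4 at 48 h, with none called between 24 h and 48 h. All 9 members called at 24 h were also called at 48 h, but both comparisons share the time zero arrays. Arrays at 24 h lay above all time zero arrays for 12 members, and arrays at 48 h for 13 members, with none the other way at either time. Over all tested genes 9.87% lay above and 0.784% below time zero without overlap at 24 h, and 8.1% and 1.8% at 48 h.

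**Figure D1:**
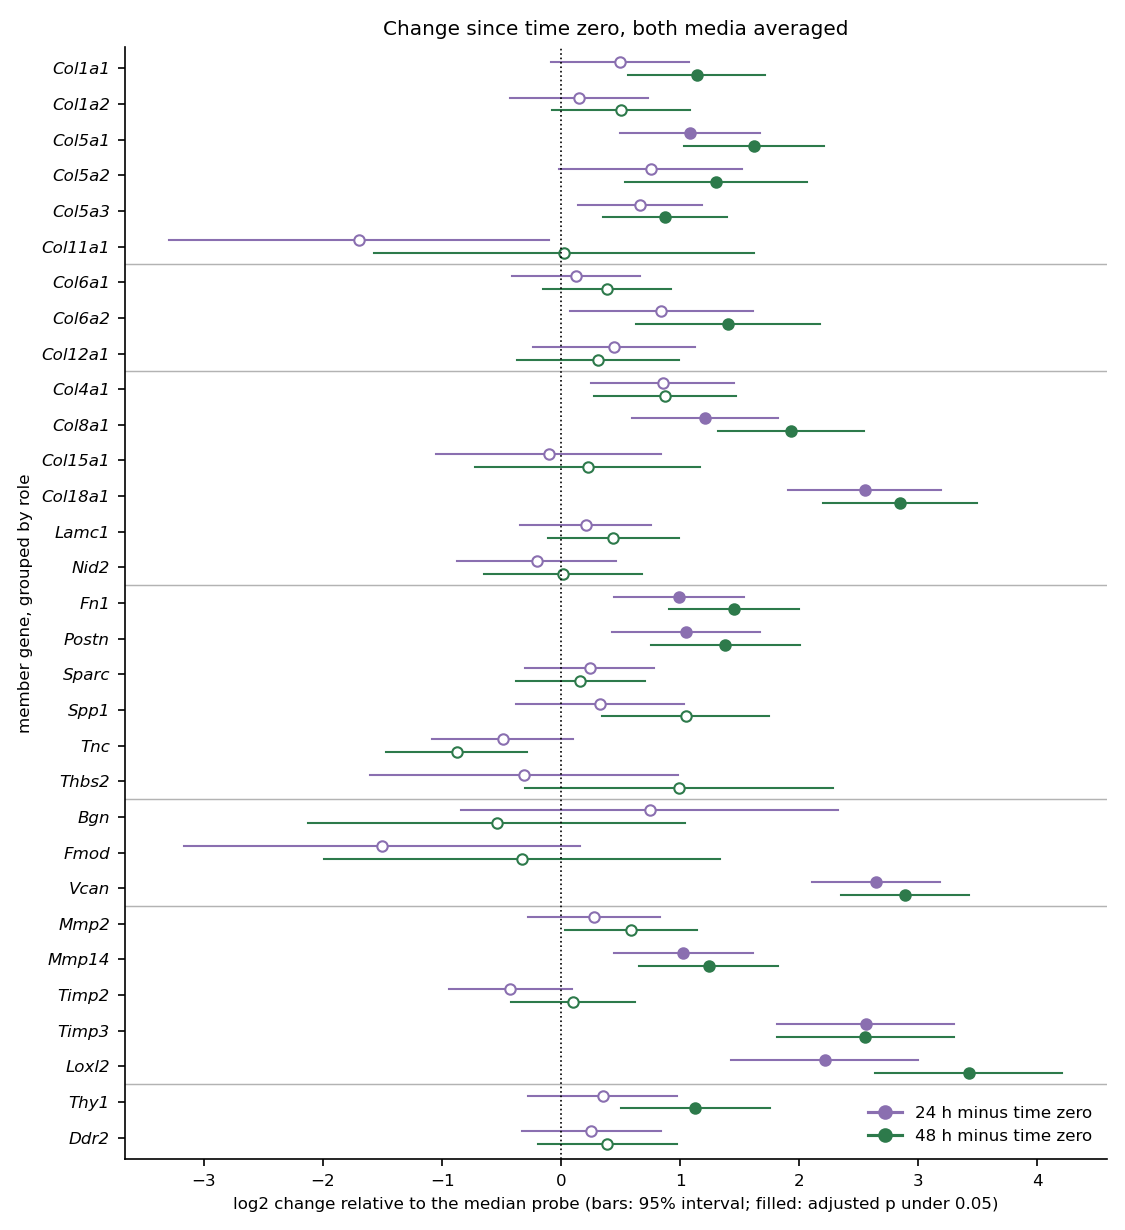
Log2 change (horizontal axis, relative to the median probe) from time zero to 24 h (purple) and 48 h (green) for the 31 tested members, averaged over both media, with 95% intervals as bars and filled points for an adjusted p under 0.05. Filled points number 9 at 24 h and 14 at 48 h, all to the right of 0, and Vcan, Timp3, Col18a1 and Loxl2 lie above 2 at both times.

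Among the fibrillar collagens, Col1a1, the alpha1 chain of type I collagen, read 2141, 1366, 1874 and 2279 at time zero. At 24 h unconditioned arrays read 2799 and 3360.5, against 2238 and 3838 on conditioned ones, and at 48 h 4117 and 7144 against 3259.9 and 3783. All 48 h arrays lay above all time zero arrays, while at 24 h 1 conditioned array lay within the time zero range. The change was 0.50 ± 0.27 at 24 h (adjusted p = 0.23) and 1.14 ± 0.27 at 48 h (adjusted p = 0.0099). The partner chain Col1a2 read 1725, 809.8, 1205 and 1415 at time zero. Unconditioned arrays gave 1695 and 1856 and conditioned arrays gave 1351 and 1397 at 24 h, followed by 1553 and 2785 against 1574 and 1745 at 48 h, with overlap between time zero and both later times. It was not called at 48 h, with a change of 0.50 ± 0.27 and an adjusted p of 0.26.

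Type V collagen sits inside type I fibrils and limits their width. Its main chain gene Col5a1 read 1006, 635, 674 and 1154 at time zero. After 24 h the intensities were 1912 and 2989 without conditioning and 1591 and 1798 with it, and after 48 h 1962 and 3494 without and 2794 and 2876 with it, so every later array exceeded every time zero array. Col5a1 rose by 1.08 ± 0.28 at 24 h (adjusted p = 0.016) and 1.62 ± 0.28 at 48 h (adjusted p = 0.0008). Its partner Col5a2 read 1049.9, 343, 327 and 958 at time zero. In unconditioned medium it read 1019 and 1345 at 24 h, against 1096 and 993 in conditioned medium, and 1117 and 2071 against 1613 and 1379.8 at 48 h, and the time zero arrays formed a high and a low pair, the low ones being replicates 4 and 5. Col5a2 was called at 48 h (1.30 ± 0.36, adjusted p = 0.027), where all arrays exceeded time zero, and not at 24 h (0.75 ± 0.36, adjusted p = 0.2). The third chain, Col5a3, read 199.998, 237, 157 and 260.4 at time zero. Later arrays read 351 and 421 (unconditioned) against 373 and 359 (conditioned) at 24 h, and 324 and 469 against 433 and 407 at 48 h. Both later times lay above time zero without overlap, and the change passed the threshold at 48 h (0.87 ± 0.25, adjusted p = 0.025) but not at 24 h (0.66 ± 0.25, adjusted p = 0.079). Col11a1, a minor fibrillar chain of cartilage and developing tissue, was dim, with intensities from below the lower limit on 1 array to 199.5, and was not called (adjusted p = 0.97 at 48 h).

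Of the other interstitial collagens, Col6a2, a chain of the beaded type VI filaments around cells, read 68.6, 35.3, 41.8 and 72.1 at time zero. By 24 h the level was 79.7 and 162 in unconditioned cultures and 92.8 and 103 in conditioned ones, and by 48 h 83.2 and 183 against 160.1 and 179. All later arrays exceeded time zero, and the call was made at 48 h (1.40 ± 0.37, adjusted p = 0.018) but not at 24 h (0.84 ± 0.37, adjusted p = 0.16). The probe used for Col6a1, another type VI chain, changed by 0.38 ± 0.26 at 48 h (adjusted p = 0.36), with group ranges that overlapped. Col12a1, which bridges fibrils, changed by 0.31 ± 0.32 (adjusted p = 0.6).

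In the basement membrane and network group 2 of 6 tested members were called at each time, the same 2 genes. Col18a1, a basement membrane collagen whose end fragment is endostatin, read 427, 206, 212 and 413 at time zero. At 24 h unconditioned arrays read 1207 and 1659, against 2309 and 3216 on conditioned ones, and at 48 h 1128 and 2103 against 3162 and 3394. Its lowest later array, unconditioned 48 h replicate 2, still exceeded every time zero array. Col18a1 rose by 2.55 ± 0.31 at 24 h (adjusted p = 4.2e-05) and 2.85 ± 0.31 at 48 h (adjusted p = 1.1e-05). Col8a1, a short network collagen found in vessel walls, read 159.6, 103, 126 and 217 at time zero. Unconditioned arrays gave 358 and 512 and conditioned arrays gave 288 and 399 at 24 h, followed by 549 and 1009.7 against 435 and 487 at 48 h, again with no overlap with time zero. Its change was 1.21 ± 0.29 at 24 h (adjusted p = 0.01) and 1.93 ± 0.29 at 48 h (adjusted p = 0.00026).

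Col4a1, the core chain of basement membranes, read 2354, 1594, 1549 and 2969 at time zero. After 24 h the intensities were 3662 and 4754 without conditioning and 3914 and 4426 with it, and after 48 h 2264 and 4402 without and 4483 and 5374 with it. At 24 h its arrays all exceeded time zero, and at 48 h unconditioned replicate 2 fell back into the time zero range. Neither change passed the threshold, at 0.85 ± 0.29 (adjusted p = 0.058) and 0.87 ± 0.29 (adjusted p = 0.0538). Lamc1, the shared gamma1 chain of most laminins, changed by 0.44 ± 0.26 at 48 h (adjusted p = 0.3), Col15a1 by 0.22 ± 0.45 (adjusted p = 0.8) and the nidogen Nid2 by 0.01 ± 0.32 (adjusted p = 0.93).

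Fibronectin (Fn1), the adhesive glycoprotein of early matrix, and periostin (Postn), a matricellular protein of activated fibroblasts, were the 2 called members of 6 tested in their group at both times. Postn read 212, 94.4, 246 and 229 at time zero. In unconditioned medium it read 408 and 451 at 24 h, against 437 and 419.971 in conditioned medium, and 424 and 614 against 457 and 536 at 48 h, and every later array exceeded time zero. Postn rose by 1.05 ± 0.30 at 24 h (adjusted p = 0.028) and 1.38 ± 0.30 at 48 h (adjusted p = 0.0046). Fn1 read 2229, 1348, 1693 and 2756 at time zero. Later arrays read 2466 and 2624 (unconditioned) against 7089 and 7811 (conditioned) at 24 h, and 2556 and 3410.2 against 11061 and 10069 at 48 h. The conditioned arrays were far above time zero, whereas 3 of the 4 unconditioned arrays lay inside the time zero range and only unconditioned 48 h replicate 3 exceeded it. Averaged over media the change was 0.99 ± 0.26 at 24 h (adjusted p = 0.017) and 1.45 ± 0.26 at 48 h (adjusted p = 0.0011). In a split by medium that was added after the data were seen, Fn1 changed in unconditioned medium by 0.21 ± 0.32 (adjusted p = 0.73) at 24 h and 0.60 ± 0.32 (adjusted p = 0.44) at 48 h. In conditioned medium it rose by 1.76 ± 0.32 (adjusted p = 0.0016) and 2.28 ± 0.32 (adjusted p = 0.0001).

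Tenascin C (Tnc), a glycoprotein of embryonic and wounded tissue, read 911, 444, 579 and 918 at time zero. By 24 h the level was 622 and 651 in unconditioned cultures and 478 and 467 in conditioned ones, and by 48 h 300.5 and 538 against 384 and 378. Its level at 48 h overlapped time zero through unconditioned replicate 3 and time zero replicate 4. The change of -0.88 ± 0.28 at 48 h was not called (adjusted p = 0.11), but Tnc was called lower at 48 h without the 3 arrays that stood apart, under array weights, and under quantile or 75th percentile scaling. Sparc, a collagen-binding matricellular protein, read 31919.8, 18271, 18545 and 27284 at time zero. At 24 h unconditioned arrays read 34629.8 and 35457, against 29801 and 25699.6 on conditioned ones, and at 48 h 25902 and 30698 against 26768 and 26844, with overlap at both times, and its probe changed by 0.16 ± 0.26 at 48 h (adjusted p = 0.7). Osteopontin (Spp1) changed by 1.04 ± 0.33 at 48 h (adjusted p = 0.0516) and Thbs2, an inhibitor of vessel growth, by 0.99 ± 0.61 (adjusted p = 0.39).

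Versican (Vcan), the large proteoglycan of provisional matrix, had the lowest adjusted p of all members at both times. Its intensity was 279.8, 171, 198 and 186 at time zero. Unconditioned arrays gave 1111 and 1081 and conditioned arrays gave 1986 and 1852 at 24 h, followed by 897 and 1626 against 2077 and 2184 at 48 h. Time zero arrays stayed below every later array, whatever the medium. The rise was 2.64 ± 0.26 at 24 h (adjusted p = 6.9e-06) and 2.89 ± 0.26 at 48 h (adjusted p = 1.9e-06). Biglycan (Bgn), a small proteoglycan, read 114, 105, 182 and 222 at time zero, 234 and 369 in unconditioned and 273 and 265 in conditioned medium at 24 h, 257 and 409.7 in unconditioned medium at 48 h, and 263 on 1 conditioned 48 h array, while the other fell below the lower limit. All 24 h arrays exceeded time zero, though the change of 0.74 ± 0.75 did not pass (adjusted p = 0.58), and the array below the limit leaves its 48 h change without a usable value. Fmod, which guides fibril assembly, was dim and was not called (adjusted p = 0.43 at 24 h and 0.92 at 48 h).

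Enzymes and inhibitors supplied 3 called members of 5 at each time. Timp3, the inhibitor of metalloproteinases that is anchored in the matrix, read 92.1, 48.9, 113 and 202 at time zero. After 24 h the intensities were 445 and 531 without conditioning and 905 and 953 with it, and after 48 h 322 and 611 without and 744 and 1033 with it. No later array overlapped time zero, where replicate 6 was highest and replicate 4 lowest. Timp3 rose by 2.56 ± 0.35 at 24 h (adjusted p = 0.00017) and 2.55 ± 0.35 at 48 h (adjusted p = 0.00013). Loxl2, an enzyme that crosslinks collagen, read 59.5, 13.4, 40.9 and 32.5 at time zero. In unconditioned medium it read 142 and 127 at 24 h, against 228 and 198 in conditioned medium, and 334 and 236 against 492 and 451 at 48 h. Its groups were ordered without overlap, with time zero lowest and all 48 h arrays above all 24 h arrays. Loxl2 rose by 2.22 ± 0.37 (adjusted p = 0.00095) and 3.43 ± 0.37 (adjusted p = 1.3e-05) against time zero, the largest 48 h change among the members.

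The membrane-bound protease Mmp14, which activates the gelatinase Mmp2, read 203, 119, 148 and 267 at time zero. Later arrays read 387 and 454 (unconditioned) against 366 and 418 (conditioned) at 24 h, and 308 and 481 against 525 and 473 at 48 h, with all later arrays above time zero. Mmp14 rose by 1.03 ± 0.28 at 24 h (adjusted p = 0.021) and 1.24 ± 0.28 at 48 h (adjusted p = 0.0061). Mmp2 itself read 921, 676, 598 and 1100.2 at time zero. By 24 h the level was 1035 and 1395 in unconditioned cultures and 996 and 1003 in conditioned ones, and by 48 h 1087 and 1722 against 1155 and 1188. Its arrays overlapped time zero at both times, and it was not called (0.58 ± 0.26 at 48 h, adjusted p = 0.16). Timp2, the inhibitor that helps Mmp14 to activate Mmp2, changed by -0.43 ± 0.25 at 24 h (adjusted p = 0.66) and 0.10 ± 0.25 at 48 h (adjusted p = 0.78).

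Of the surface markers, Thy1, a glycoprotein used to sort fibroblasts, read 74.4, 55.3, 82.7 and 92.2 at time zero. At 24 h unconditioned arrays read 132 and 186, against 80.5 and 68.3 on conditioned ones, and at 48 h 167 and 280.2 against 136 and 139. Every 48 h array exceeded time zero, while conditioned 24 h arrays did not. Thy1 rose at 48 h by 1.13 ± 0.30 (adjusted p = 0.018), with 0.35 ± 0.30 at 24 h (adjusted p = 0.41). Ddr2, a collagen receptor kinase, read 223, 139, 132 and 152 at time zero. Unconditioned arrays gave 180.2 and 241 and conditioned arrays gave 239.8 and 197 at 24 h, followed by 189 and 346 against 191 and 181 at 48 h. Its arrays overlapped time zero at both times, with a change of 0.39 ± 0.28 at 48 h (adjusted p = 0.41).

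**Figure D2:**
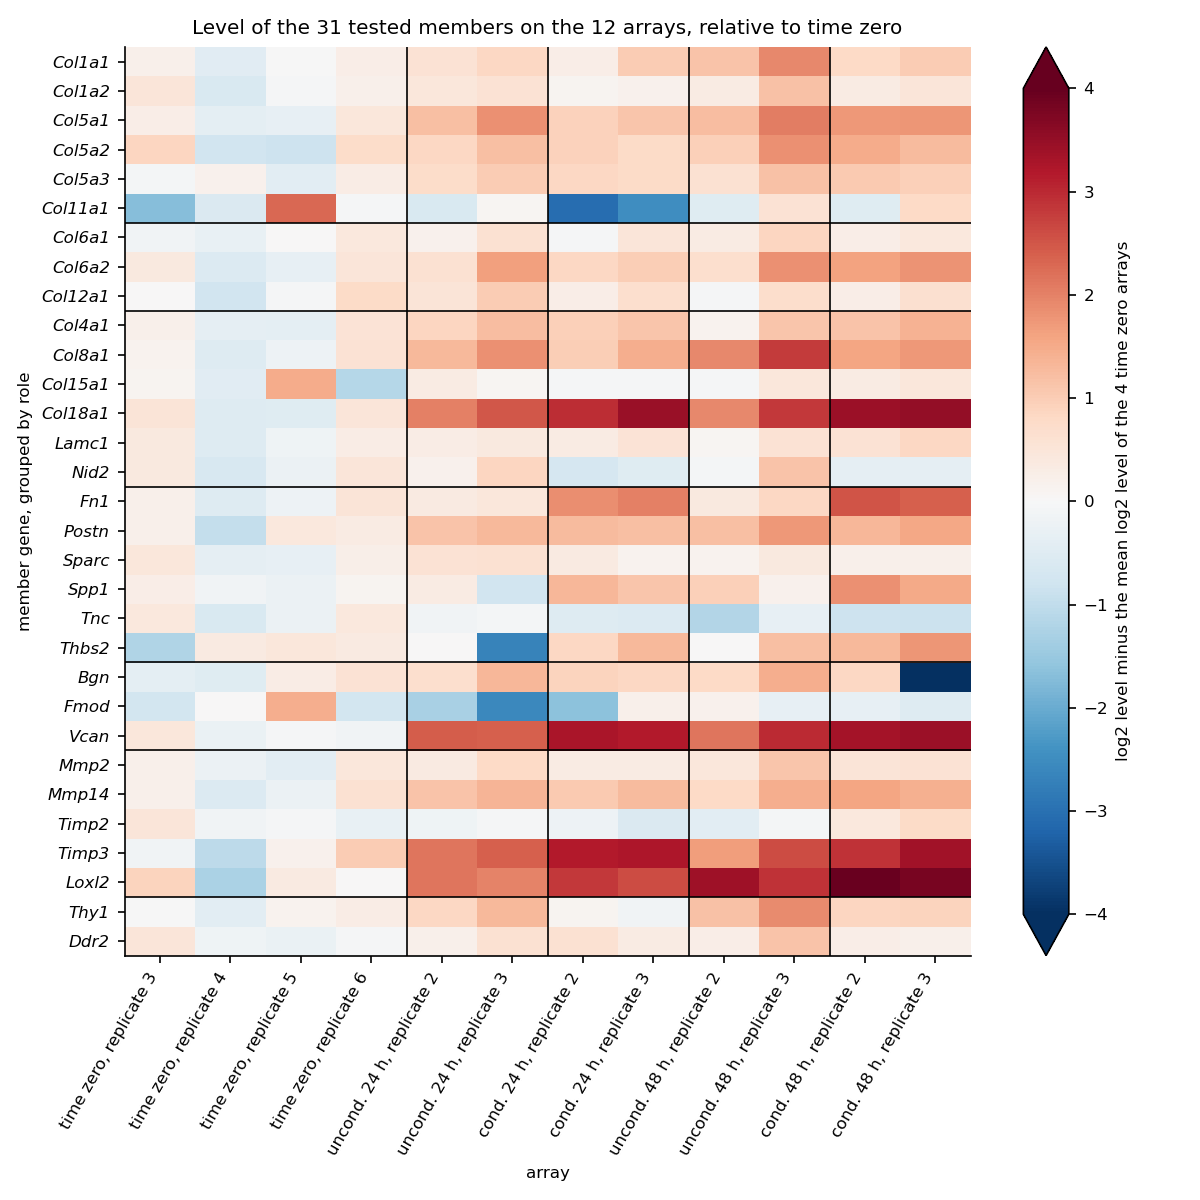
Log2 level of each of the 31 tested members (rows, grouped by role) on each of the 12 arrays of the larger design (columns), minus the mean over the 4 time zero arrays; red is higher, blue lower, and the colour scale ends at 4 either way. Vcan, Timp3, Col18a1 and Loxl2 are red on all 8 later arrays, Fn1 is darker on the 4 conditioned arrays, and the darkest blue cell is the Bgn probe below the lower limit on conditioned 48 h replicate 3.

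Calls of Vcan, Timp3 and Col18a1 at both times, and of Col5a1, Col8a1, Postn and Loxl2 at 48 h, held under every alternative in which they could be tested, while other calls were less secure. At 24 h only 5 members were called when the test was made on the change after the median was subtracted, the same number with no limit on brightness, and 4 without unconditioned 24 h replicate 3 or without conditioned 24 h replicate 3, and 5 without conditioned 24 h replicate 2. At 48 h 9 members were called without conditioned 48 h replicate 3 and 10 without unconditioned 48 h replicate 3. Without the 3 arrays that stood apart 12 members were called at 24 h, of which 11 rose, and 16 at 48 h, of which 15 rose; Tnc was the member that fell in each. Calls over all genes were also more frequent there, at 8.62% and 16.9%. In unconditioned medium alone 6 members rose at 24 h and 9 at 48 h, where 1.16% and 3.47% of all genes were called. In conditioned medium alone 5 and 12 rose, where 3.85% and 8.25% of genes were called. No member was called lower in either medium.

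Markers of other cell types were read over the same interval, where 4.14% of all tested genes were called at 24 h and 8.33% at 48 h. Counts in these short lists can lie near those shares. Of 10 tested endothelial markers 3 rose and 1 fell at 24 h, and 7 rose and 1 fell at 48 h, with a median change of 0.69 and 1.44; Pecam1, Kdr, Flt1, Tek and Vwf were all above the lower limit on every array. Their summed intensity ran from 1403 to 2096 at time zero, 2368 to 2956 at 24 h and 2958 to 4715 at 48 h, without overlap between time zero and either later time. Smooth muscle and pericyte markers rose in 2 of 9 tested at 24 h and 4 of 9 at 48 h, none fell, and their sum went from 19695 to 34883 at time zero, to 38584 to 58339 at 24 h and to 35143 to 54386 at 48 h; Rgs5 was at the lower limit on 9 of 12 arrays. The fibroblast markers, most of them members, summed to between 2501 and 4454 at time zero. They summed to between 4415 and 6141 at 24 h and 5664 and 11197 at 48 h. The smooth muscle and fibroblast sums rest mostly on their brightest probes. Over the 12 arrays Col1a1 and Col1a2 averaged 3183 and 1593, against at most 377 for the other fibroblast markers. Acta2 and Tagln averaged 20426 and 10180, against at most 3150 for the other smooth muscle and pericyte markers. Cardiomyocyte markers had 1 of 16 lower and none higher at 24 h, and 3 lower and none higher at 48 h, and their sums overlapped between all times. Of 7 tested leukocyte markers 1 rose and 1 fell at each time, with Lyz2 at the lower limit on all 12 arrays and Ptprc on 7. The part of these cell types in the rise of the members was not tested.

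Between the media, fibronectin was the only member called. Over both times 1 of 31 members rose in conditioned against unconditioned medium and none fell, where 1.03% of all genes were called and 0.683% rose, so the members' count is near that background. The median change of the tested members was -0.11, against 0.05 for all genes. As the intensities above show, all 4 conditioned Fn1 arrays lay between 7089 and 11061, and all 4 unconditioned arrays between 2466 and 3410.2. Fn1 was higher in conditioned medium by 1.61 ± 0.26 over both times (adjusted p = 0.0024), which held under every alternative run, with changes from 1.52 to 2.31. A second Fn1 probe gave 2.23 (adjusted p = 0.00015). Taken at each time alone, the first probe gave 1.54 ± 0.37 at 24 h (adjusted p = 0.13) and 1.66 ± 0.37 at 48 h (adjusted p = 0.059), neither called, while the second probe was called at 48 h, at 2.60 (adjusted p = 0.0035). At 24 h 0.311% of genes and at 48 h 0.161% were called, and no member at either time.

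Besides Fn1, 4 members had conditioned arrays above all unconditioned arrays without passing the adjusted threshold, and 1 had them below. Of all tested genes 9.81% lay higher and 2.3% lower in this way. Spp1, encoding the secreted phosphoprotein osteopontin, read 75.2, 56.4, 53.1 and 67.2 at time zero. After 24 h the intensities were 78.9 and 36.3 without conditioning and 158 and 135 with it, and after 48 h 121 and 70.6 without and 222 and 179.7 with it, with a change of 1.20 ± 0.33 (adjusted p = 0.092). Col18a1 differed by 0.93 ± 0.31 (adjusted p = 0.16), Vcan by 0.73 ± 0.26 (adjusted p = 0.19) and Timp3 by 0.87 ± 0.35 (adjusted p = 0.28). In the other direction, Nid2, the basement membrane linker that binds laminin and collagen IV, read 3572, 1739, 2337 and 3786 at time zero. In unconditioned medium it read 3080.2 and 4960.5 at 24 h, against 1693 and 1960.04 in conditioned medium, and 2599 and 6041 against 2124 and 2119 at 48 h. All 4 conditioned Nid2 arrays lay below all 4 unconditioned arrays, at -1.09 ± 0.32 (adjusted p = 0.19). Thy1 differed by -0.95 ± 0.30 in conditioned medium (adjusted p = 0.24), and its arrays overlapped across times though not within either time. Spp1, Col18a1, Vcan and Nid2 were called under array weights and without the 3 arrays that stood apart, where 6 and 9 members passed, and Col18a1, Vcan and Nid2 also under quantile and 75th percentile scaling, with 4 and 5 members. Those settings called more of all genes too, 4.98% under array weights, 8.36% without the 3 arrays, 4.95% under quantile and 4.38% under 75th percentile scaling, against 1.03% above.

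**Figure D3:**
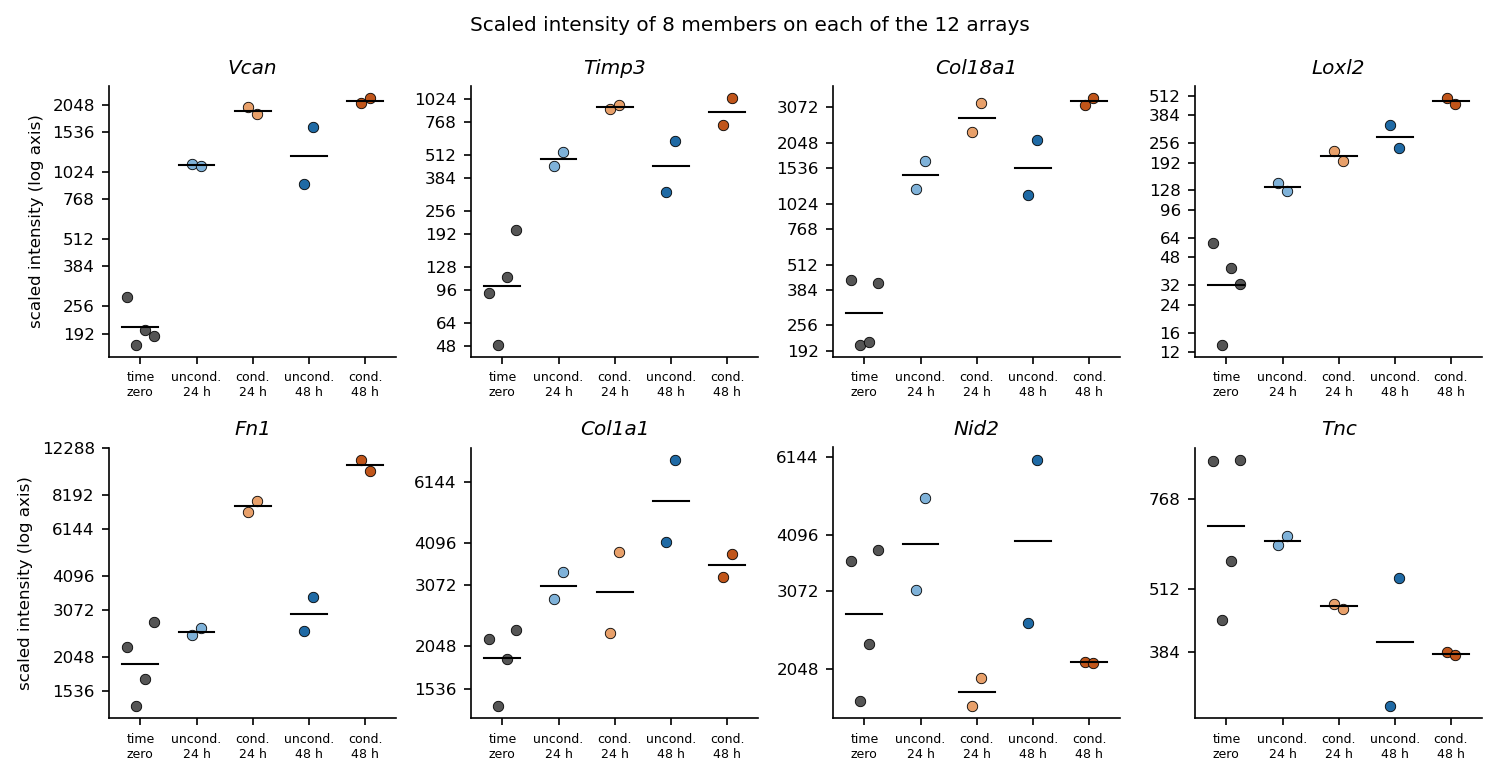
Scaled intensity (vertical log axis, no unit) of 8 members on each of the 12 arrays of the larger design, by group; points are arrays and lines the mean of the log values. Vcan, Timp3, Col18a1 and Loxl2 step up after time zero in both media, Fn1 is high on the 4 conditioned arrays, and Nid2 is low on them.

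The fibrillar collagens showed no call between media. On the probes used, all 6 tested lay below the median probe over both times, with overlapping arrays and a median of -0.35. Changes ran from -1.27 (the dim Col11a1) to -0.07 (Col5a3), and 0 of 6 were above the median under quantile and 75th percentile scaling too. The sign was not the same throughout, with 0.07 on the second Col5a2 probe and 0.09 for Col5a3 on the smaller design. Col1a1 and Col5a1 stayed below the median on their second probes and on the smaller design. For Col1a1 the difference was -0.43 ± 0.27 (95% interval -1.01 to 0.15, adjusted p = 0.72) and for Col1a2 -0.43 ± 0.27 (95% interval -1.01 to 0.15, adjusted p = 0.72). These intervals leave room for a decrease, so the absence of a call does not show equal levels. Without the 3 arrays that stood apart Col1a2 was called lower. Postn differed by -0.11 ± 0.30 (adjusted p = 0.99), Sparc by -0.29 ± 0.26 (0.84), Mmp2 by -0.33 ± 0.26 (0.81) and Ddr2 by -0.28 ± 0.28 (0.86). Bgn has no usable value in conditioned medium at 48 h.

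**Figure D4:**
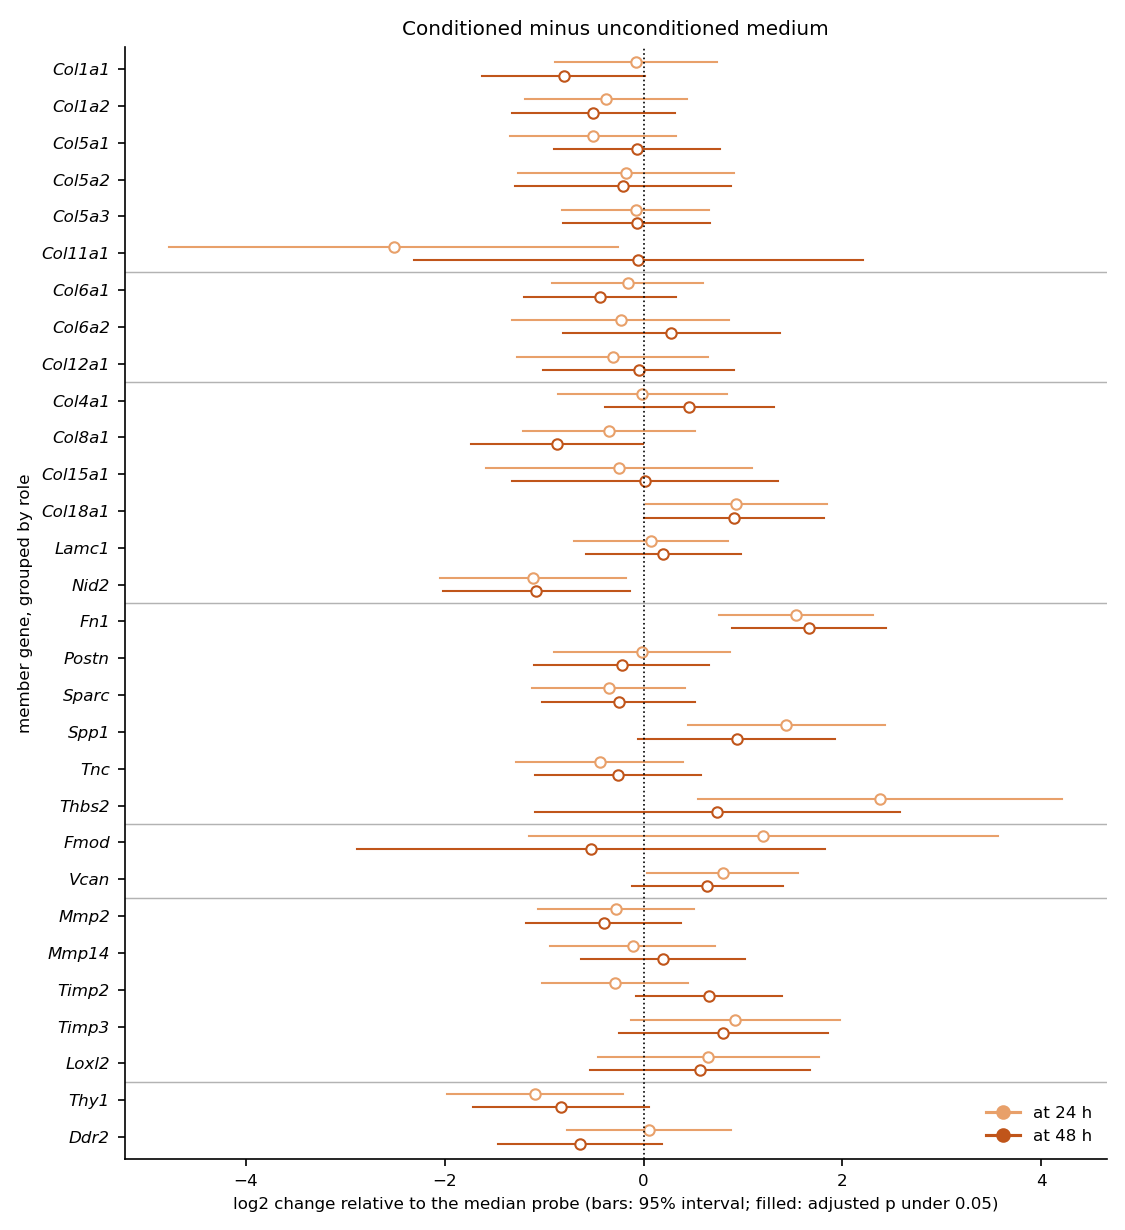
Log2 difference between conditioned and unconditioned medium (horizontal axis, relative to the median probe) at 24 h (light) and 48 h (dark) for 30 members, Bgn left out, with 95% intervals as bars; a filled point would mark an adjusted p under 0.05. No point is filled at either time alone, Fn1 lies at 1.54 and 1.66, and Nid2 at -1.11 and -1.08.

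Markers of other cell types were called in small numbers between the media over both times, where 1.03% of all tested genes were called. Counts were 0 of 10 endothelial, 0 of 5 fibroblast and 1 of 9 smooth muscle and pericyte markers (higher). Of cardiomyocyte markers 1 of 16 was called lower, and of leukocyte markers 1 of 7. A single call in so short a list does not describe its cell type. Summed endothelial intensity overlapped between media at both times, and the smooth muscle sum was lower in conditioned medium at 24 h (38584 to 42184 against 52319 to 58339) and higher at 48 h (51615 to 54386 against 35143 to 47627). Fibroblast sums overlapped at 24 h, and at 48 h ran from 5664 to 6441 in conditioned against 6464 to 11197 in unconditioned medium. As above, fibroblast sums rest mostly on Col1a1 and Col1a2, and smooth muscle sums on Acta2 and Tagln. Cardiomyocyte sums were lower in conditioned medium at 24 h (285578 to 339965 against 397103 to 418449) and overlapped at 48 h. The median change of the 16 cardiomyocyte markers at 24 h was -0.47, and none was called. Leukocyte sums were lower in conditioned medium at 24 h (1132 to 1275 against 1332 to 1364) and at 48 h (1075 to 1130.2 against 1386 to 2385). Their part in the Fn1 difference was not tested.

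The medium effect was then compared between 24 h and 48 h. No gene passed (0% called by limma, though 518 probes had p under 0.05 before adjustment), and for Fn1 the difference between the effects was 0.11 ± 0.52 (95% interval -0.99 to 1.20). Timp2 was the 1 member whose arrays parted in opposite directions, as those of 3.9% of genes did, reading 848 and 921 in unconditioned against 829.6 and 637 in conditioned medium at 24 h, and 713 and 906 against 1288 and 1609 at 48 h. That difference was 0.94 ± 0.49, with an unadjusted p of 0.036 and an adjusted p of 1.00. From 24 h to 48 h 0.0402% of genes were called and no member was; Loxl2 had the smallest value among members, with 1.20 ± 0.37 (adjusted p = 0.79) and arrays that did not overlap. The members' median change over that interval was 0.32, against a value near 0 for all genes.

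The smaller array design gave a second set of values, from 6 arrays without replicates in the later groups, so no test is given beside them here. Of the 26 members with a probe on both designs, 21 passed the limit on brightness on both, and of these 16 had the same sign of change at 48 h against time zero, 20 at 24 h against time zero and 14 between the media over both times. Their median difference between the media was 0.30 on the smaller design and -0.11 on the larger, after subtracted medians of -0.32 and 0.09. These opposite signs hold only after that subtraction. On the smaller design it alone gave 0.32 to Dcn, Lum and Nid1, which lay at the lower limit on all 6 arrays. The conditioned arrays of that design had upper quartiles 16.6 and 16.3 times their lower quartiles, against 27.2 to 54.1 times on its other arrays. All 9 of the 21 members called at 48 h on the larger design, and all 7 called at 24 h, had the same sign. Changes at 48 h on the smaller design were 2.55 for Timp3, 2.53 for Col18a1, 2.52 for Loxl2 and 2.36 for Vcan. Fn1 read 147 and 134 at time zero, 87.5 and 426 in unconditioned and conditioned medium at 24 h, and 171 and 554 at 48 h, so both conditioned arrays were the highest, and the medium difference was 2.31. Nid2 read 3613 and 4028 at time zero, 4338 and 1197 in unconditioned and conditioned medium at 24 h, and 6312 and 1760.5 at 48 h, with both conditioned arrays lowest and a difference of -1.53. For Spp1 the difference was 1.78, and for Tnc the 48 h change was -1.07. Whether both designs received RNA of the same dishes is not stated. The Col6a1 value on this design rests on a reading below the lower limit in unconditioned medium at 48 h, and Bgn goes the other way than on the larger design, where 1 array was below the limit.

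**Figure D5:**
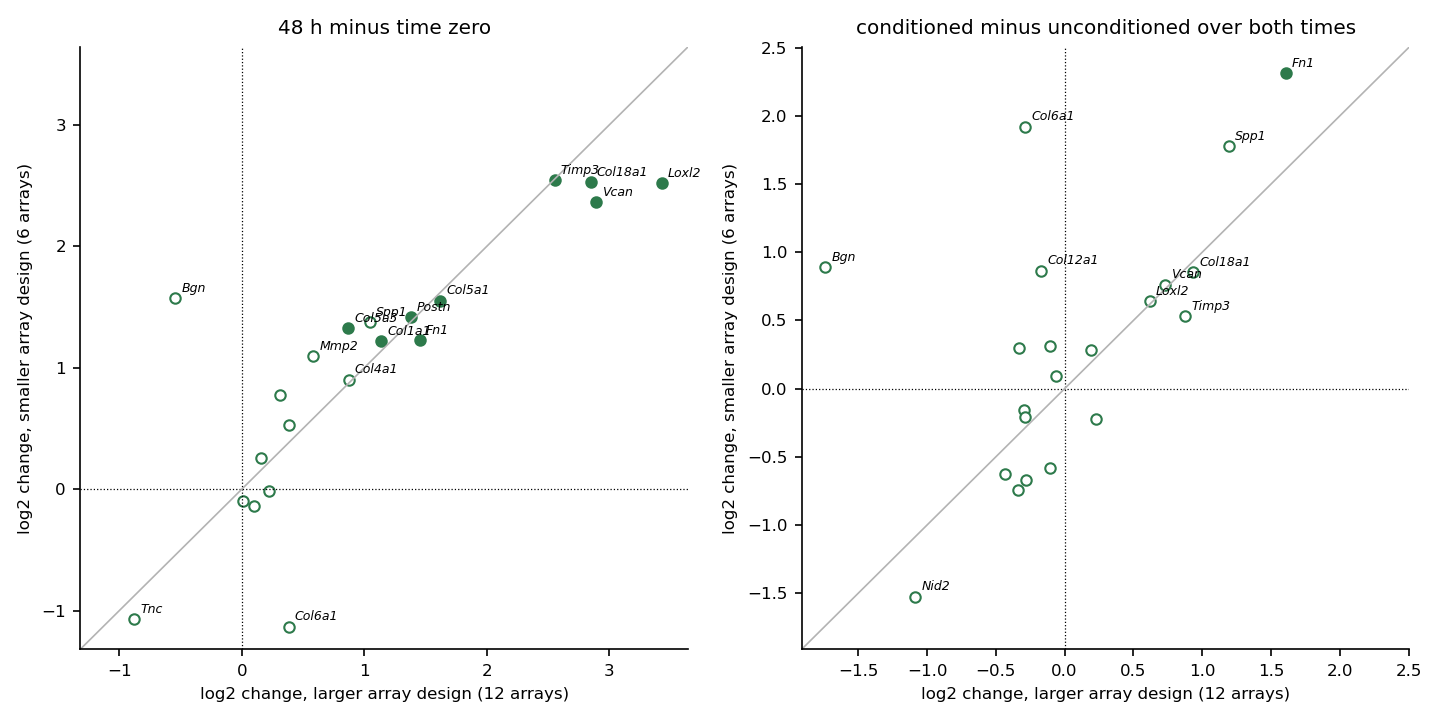
Log2 change on the larger design (horizontal) against the smaller design (vertical) for the 21 members bright enough on both, for 48 h minus time zero (left) and for conditioned minus unconditioned medium (right); filled points were called on the larger design, and the grey line marks equal values. On the left 16 of 21 members have the same sign, and on the right 14, with Fn1 at the upper end and Nid2 at the lower; Bgn and Col6a1 each rest on 1 array below the lower limit.

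On the larger design 15 members had several probes, and the probe with the highest mean was used. For Col1a1 both probes rose at 48 h, the second by 1.75 (adjusted p = 0.00056), and both Vcan probes rose at both times, the second by 2.29 (adjusted p = 6.5e-05) at 48 h. The second Col5a1 probe rose at 48 h by 1.20 (adjusted p = 0.0072) but changed at 24 h by 0.49 (adjusted p = 0.23). Second probes were called at 48 h where the one used was not for Col4a1, at 1.04 (adjusted p = 0.015), for Col6a1, at 1.19 (adjusted p = 0.0046), and for Sparc, at 1.01 (adjusted p = 0.0082). A dim Col15a1 probe, at the lower limit on 2 arrays, was called as well, at 2.61 (adjusted p = 0.039). The second Col5a2 probe missed the threshold at 48 h, at 1.21 (adjusted p = 0.058). At 24 h the second Col1a1 probe was called, at 0.90 (adjusted p = 0.04997), and the second Fn1 probe was not, at 0.66 (adjusted p = 0.11). For these 7 genes, and for Col5a1 at 24 h, a call therefore depends on the probe in the comparison just named. Both tested probes of Col1a1 and of Fn1 were called at 48 h against time zero. Between the media over both times both tested Fn1 probes were called. Nid2 was lower in conditioned medium on its second probe as well, at -0.88 (adjusted p = 0.27), again not called. Fn1, Loxl2 and Thy1 each had a further probe that was too dim to test.

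Genes around the members were read from a list of 82 genes of collagen maturation, other matrix proteins, proteases, receptors and fibroblast activation, of which 57 were tested. At 24 h 10 rose and none fell, and at 48 h 15 rose and none fell, with median changes of 0.39 and 0.54. Of all tested genes 3.78% rose at 24 h and 7.14% at 48 h, and counts in the short lists below can lie near those shares. The 4 with the smallest adjusted p at 24 h were the signalling protein Ccn4 at 2.05, the crosslinking enzyme Lox at 1.56, the elastic fibre protein Fbln2 at 1.56 and the inhibitor Timp1 at 1.65. At 48 h they were Lox at 2.47, Fbln2 at 2.47, the protease Mmp23 at 2.03 and Ccn4 at 1.91. Of the 13 collagen maturation genes tested, 1 rose at 24 h and 4 rose at 48 h, of 18 other matrix proteins 3 and 3, of 11 matrix receptors 2 and 3, of 6 other proteases and inhibitors 2 and 2, and of 9 fibroblast and activation genes 2 and 3. Between the media none of the 57 was called over both times, where 1.03% of all genes were. The smallest adjusted p there was that of P4hb, a subunit of prolyl hydroxylase, at 1.24 (adjusted p = 0.0523).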

How the data were processed

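Biotin-labelled total RNA of 18 samples was hybridised to 1-colour CodeLink arrays, per the labels. The deposited values are linear intensity, 1 column per sample, on 2 array designs; how they were scanned, background-corrected or normalized is not given in the sources used here. Array medians differed, and some deposited intensity values lay near 0.

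The members, lists and comparisons were chosen with earlier results of these data known. Genes were named from the platform annotation, only for probes with 1 gene. Each array was scaled to its table's median, floored at 0.05 of it (intensity 4.84 on the larger and 14.4 on the smaller design) and taken to log2 of the deposited intensity. Probes with a mean above the 30th percentile (23694 for 9953 genes) entered 1 fit over the 5 groups of the larger design with limma 3.58.1 (R 4.3.3; eBayes with a trend on intensity, 7 residual degrees of freedom), and Benjamini-Hochberg adjustment ran over all probes. The probe with the highest mean stood for a gene. The 7 comparisons contrasted the media and times. Members called in any comparison, and a few set by name, are given on every array, other members by change or range, and for the surrounding list the 4 smallest adjusted p.

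Alternatives were 12 fits that each left out 1 array, and 15 others (scaling, filter, floor, variance model, array weights, probes and designs), of which 3 were chosen after the data were seen: testing after subtracting the median change, and using the arrays of only 1 medium. The number of arrays limits the precision. The fit was tested on simulated data. Promoters came from RefSeq (GRCr8), where 26 of the 40 members matched. Figures used matplotlib 3.10.9 in Python 3.11.15.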

Additional observations from a re-analysis of the deposited data

Results flagged for a closer look

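Among 31 sets of 4 time zero arrays that were checked for a single outlying array, 2 had one, and chance gives about 1 in 20. Postn, the periostin gene, read lowest on time zero replicate 4, at an intensity of 94.4. On the log2 scale the gap to the next array took 0.846 of the range of the 4 arrays. Replicate 4 is one of the 3 arrays that stood apart. Thbs2, an inhibitor of vessel growth, read lowest on time zero replicate 3, at 13.5, with a gap of 0.934 of the log2 range. Replicate 3 did not stand apart. Timp2, an inhibitor of metalloproteinases, was lower in conditioned medium on both arrays at 24 h and higher on both at 48 h, and the medium effects differed by 0.94 on the log2 scale. In limma that difference had an unadjusted p of 0.036 and an adjusted p of 1.00.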

How the results depend on the processing

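Followed through the alternatives were all calls of members, and the medium differences of Col18a1, Spp1, Vcan, Nid2, Thy1 and Fn1. None of these changed sign. Leaving aside the smaller table alone, 670 of their values kept their side of the threshold, 75 lost a call and 33 gained one. Other differences between the media were less stable. After the median change was subtracted, only 14 of 21 members had the same sign over both times in the smaller table. Mmp2, for example, differed by -0.33 in the main fit and by 0.30 in that table. The subtracted medians were 0.09 and -0.32, and the opposite signs of Mmp2 hold only after that subtraction. The smaller table has 1 array in each later group and 1 residual degree of freedom, so its limma counts assume that those arrays vary like the time zero pair. Between the media over both times, where 1 member and 1.03% of genes were called, quantile normalization gave 4 (4.95% of genes), scaling to the 75th percentile 5 (4.38%), array weights 6 (4.98%), leaving out the 3 arrays that stood apart 9 (8.36%), both tables with the design as a covariate 2 (3.09%) and the smaller table alone 4 (8.44%), and leaving out 1 array gave 1 to 2. At 24 h, with 0 called, the same settings gave 2, 1, 4, 3, 1 and 2, and leaving out 1 array 0 to 1. At 48 h, with 0 called, they gave 2, 1, 1, 2, 1 and 2, a filter at the 50th percentile and the mean over probes 1 each, and leaving out 1 array 0 to 1. For the medium effects at 48 h minus 24 h, and for 48 h against 24 h, with 0 called, leaving out 1 array gave 0 to 1; the 1 was Bgn without conditioned 48 h replicate 2, when its remaining array was the one below the lower limit. Against time zero at 24 h, where 9 members were called, no filter, the smaller table alone, the test after subtracting the median change and conditioned arrays only gave 5 each (1.77%, 2.59%, 2.7% and 3.85% of genes, against 4.14%), and leaving out 1 array 4 to 11. At 48 h, where 14 were called, the smaller table alone and unconditioned arrays only gave 9 each (8.48% and 3.47% of genes, against 8.33%), and leaving out 1 array 9 to 15.

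Against time zero the members' median change lay between 0.34 and 0.65 at 24 h and between 0.71 and 1.00 at 48 h over the 25 alternatives on the larger design. Both tables together gave 0.59 and 0.83 (17 members), and the smaller table alone 0.73 and 1.22 (21 members). Calls lost with single arrays or settings at 24 h were those of Col5a1, Col8a1, Fn1, Postn, Mmp14 and Loxl2, the last only when probes were averaged. At 48 h they were those of Col1a1, Col5a2, Col5a3, Col6a2, Fn1, Mmp14 and Thy1. Causes were not tested. At 48 h against time zero the widest standard errors were those of Fmod, Col11a1, Bgn and Thbs2, at 0.79, 0.76, 0.75 and 0.61. No paired analysis was possible because the labels carry no replicate numbers and those used here only name arrays.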
